A study of Mus musculus with 2 samples.

Results

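The 39 Hox genes of the mouse are the protein-coding genes of 4 clusters, Hoxa (11 genes, chromosome 6), Hoxb (10 genes, chromosome 11), Hoxc (9 genes, chromosome 15) and Hoxd (9 genes, chromosome 2). They were chosen by symbol from the GENCODE M21 annotation of mm10, 39 of 21911 protein-coding genes, and no measured value entered the choice. Their promoters, and all DNase-accessible sites from 100 kb before the first to 100 kb after the last gene of each cluster, were described in testis. The assay was DNase-seq, which sequences the ends left where the nuclease DNase I cut accessible DNA, on the whole testis of B6CASTF1/J males, first-generation hybrids of C57BL/6J and the castaneus-derived CAST/EiJ strain, at 14 days of age, with no treatment. The labels give 1 group with 2 biological replicates. For replicate 1 the label speaks of 3 males, for replicate 2 of no stated number, and because both name the same donor their spread may be partly technical. With 1 group no test between conditions was possible, and Hox values are given for both libraries beside the same measure over the genome.

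Hox genes encode homeodomain transcription factors that give cells their position along the body axis and the limbs. Genes at the same place in different clusters descend from 1 ancestor and form a numbered paralog group. Within a cluster the genes are transcribed in 1 direction, from the highest group number (posterior, expressed toward the tail) to the lowest (anterior, expressed toward the head). HOX proteins bind DNA with cofactors of the PBX, MEIS and PKNOX families. Polycomb complexes keep clusters silent where they are not used, Trithorax complexes counter them, and the insulator protein CTCF binds sites between the genes. In the adult body, Hox genes stay active in the somatic cells of many organs. Below, groups 1 to 4 are called anterior, 5 to 8 central and 9 to 13 posterior.

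A peak is a stretch of raised cutting that the authors listed for 1 library, and its value is their signal for that stretch. A footprint is a short protected run of bases inside an accessible site. The peak value has no stated unit, so it is read only against other peaks of the same files, whose median was 0.543 in replicate 1 and 0.506 in replicate 2. The lists held 101172 and 117359 peaks, and sequencing depth is unknown from these files. As a check of the labelled tissue, promoter peaks in both libraries were found at 6 of 6 germ cell, 5 of 5 Sertoli, 2 of 2 peritubular myoid and 3 of 4 Leydig markers, at 1 of 3 leukocyte and 0 of 3 epididymis markers, and at 2 of 3 kidney markers. Of the leukocyte markers, Ptprc had 0.323 and 0.196, and Adgre1 and Cd68 had no promoter peak in either library. Promoter peaks in both libraries are common, however, and 68.7% of the 21911 protein-coding genes had one. The Leydig count (3 of 4) and the kidney count (2 of 3) were near that background. With so few markers per list, these counts are only a weak check of the tissue. Whole testis is a mixture of cell types, and fewer cells with an open site cannot be told apart from less opening per cell.

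The longest protected runs in the clusters are shown first, because 3 of them lie at the same place in different clusters. Footprints of both libraries coincided over a run of 25 bp or more at 13 places in the 4 Hox regions, a minimum chosen after the data were examined. Hoxb held 5 of them, Hoxc 2, Hoxd 6 and Hoxa none. Of these runs, 7 matched at least 7 of the 8 fixed letters of the CTCF consensus used here (CCA, any 2 bases, AG, any 2 bases, GGC) on either strand, or 53.8%. Genome-wide the share of 16116 such runs was 37.7%. Inside the clusters the share was 3 of 8 (37.5%), near that over the genome, and the other 4 matching runs lay in flanks. Of the 8 runs inside clusters 5 are printed, on mm10 and outside any exon of a Hox gene. The other 3 lie 36348 bp upstream of Hoxb9 and, as a pair, in the promoter peak of Hoxd8. They are written 5′ to 3′ on the strand of their best match, with the 12 bases set against the CTCF letters in capitals.
2948 bp upstream of Hoxb8, chr11:96278943-96278970, plus strand, 7 of 8 letters: agtggCCGCTAGATGGCatccttgctcc
3006 bp upstream of Hoxc8, chr15:102987587-102987616, plus strand, 6 of 8 letters: aagtgaACGCGAGGTGGCgctgttgctcaa
2210 bp upstream of Hoxd8, chr2:74702390-74702420, plus strand, 7 of 8 letters: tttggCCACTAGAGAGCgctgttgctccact
Just upstream (216 bp) of Hoxc10, chr15:102966567-102966592, plus strand, 6 of 8 letters: ggcagCTGCTAGGTGGCgctgttact
3998 bp downstream of the Hoxd4 start, chr2:74715912-74715943, plus strand, 8 of 8 letters: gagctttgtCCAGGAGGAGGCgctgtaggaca

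The first 3 runs occupy the same place in 3 clusters, between the paralog group 9 and group 8 genes. The Hoxd4 run also lies in an exon of the noncoding gene Hoxd3os1. Aligned on the capitals, those of Hoxb8 and Hoxd8 shared 19 of 28 bases, those of Hoxb8 and Hoxc8 19 of 28, and those of Hoxc8 and Hoxd8 19 of 29. Hoxc8 and Hoxd8 also share the 12-base string gcgctgttgctc, which begins with the last 2 capitals. Runs at other places were alike as well: that of Hoxc8 shared 18 of 26 bases with that of Hoxc10, including the 13-base string aggtggcgctgtt, and 18 of 29 with that of Hoxd4. Other pairs shared less, such as Hoxb8 and Hoxd4 with 12 of 28 bases, and the run far upstream of Hoxb9 and Hoxb8 with 13 of 26. The capitals of every run were picked to match the same letters, so part of the likeness follows from the alignment. Likeness was looked at after the runs were seen and is a description. The Hoxa cluster has no group 8 gene and had no run of this length. Its nearest counterparts were matches to all 8 CTCF letters inside the promoter peaks of Hoxa7 (CCAGGAGATGGC) and Hoxa10 (CCACGAGATGGC). Footprints covered 11 and 12 of the 12 bases at Hoxa7 in replicates 1 and 2, and 12 in both at Hoxa10.

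The peaks around the Hoxc8 and Hoxd8 runs, the strongest Hox promoter and the strongest Hoxb peak are printed next, with capitals marking bases inside footprints of both libraries. The Hoxa4 sequence is on the minus strand, the strand of the gene, and the others on the plus strand.
Hoxa4 promoter, chr6:52191881-52192100: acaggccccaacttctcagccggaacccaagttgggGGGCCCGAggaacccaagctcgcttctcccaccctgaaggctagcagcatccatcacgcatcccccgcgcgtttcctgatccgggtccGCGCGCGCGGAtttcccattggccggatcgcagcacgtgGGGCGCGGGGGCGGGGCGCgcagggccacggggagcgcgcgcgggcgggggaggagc
Between Hoxb13 and Hoxb9, chr11:96270001-96270260: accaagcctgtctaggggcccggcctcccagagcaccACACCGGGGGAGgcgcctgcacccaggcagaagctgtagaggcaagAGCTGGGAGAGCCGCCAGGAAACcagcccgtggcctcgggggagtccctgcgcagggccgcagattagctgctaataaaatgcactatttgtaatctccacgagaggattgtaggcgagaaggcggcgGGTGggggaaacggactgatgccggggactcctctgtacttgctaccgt
Between Hoxc9 and Hoxc8, chr15:102987521-102987700: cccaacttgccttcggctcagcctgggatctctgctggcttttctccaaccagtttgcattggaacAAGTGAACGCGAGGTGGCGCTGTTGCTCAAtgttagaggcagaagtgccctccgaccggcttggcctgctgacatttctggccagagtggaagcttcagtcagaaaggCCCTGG
Between Hoxd9 and Hoxd8, chr2:74702301-74702483: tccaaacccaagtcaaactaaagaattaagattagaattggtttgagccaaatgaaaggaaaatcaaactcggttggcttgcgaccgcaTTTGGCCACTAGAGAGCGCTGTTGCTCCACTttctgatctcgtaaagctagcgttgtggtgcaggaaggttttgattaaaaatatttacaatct

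The Hoxa4 promoter peak is GC-rich (72.3% G and C) and its shared footprints are 3 short runs, the longest of 19 bp. The peak upstream of Hoxd8 is 40.4% G and C, and its only shared footprint is the 31-bp run.

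Promoters of Hox genes had a peak in both libraries less often than promoters in general. A promoter window reached 1000 bp to each side of an annotated start, and a gene's value is its highest peak there. Both libraries had a promoter peak at 20 of 39 Hox genes (51.3%), against 68.7% of all protein-coding genes. A single library had one at 12 (30.8%), against 3.25%, and neither library at 7. Taken by itself, replicate 1 had a peak at 25 Hox genes (64.1%), against 70.2% of all genes, and replicate 2 at 27 (69.2%), against 70.5%. In replicate 2 alone the Hox share was thus near the background. With windows of 2500 bp the gap in both libraries was smaller, 25 Hox genes (64.1%) against 71.7% of all genes. With windows of 1000 bp, a value above 1 in both libraries was reached by 13 Hox genes (33.3%), against 53.0%. This counts the peak in front of Hoxc10 for both Hoxc10 and Hoxc5, whose weaker peak at its other starts was below 1. The median value over all 39 was 0.570 and 0.608, against 1.42 and 1.30 over all genes. The share was also below that of non-Hox genes in the middle range of Hox promoter CpG. The Hox share covers all 39 genes, whose CpG reached from 0.173 to 0.886, so the 2 sets are not fully matched. CpG was taken around the 5′ end of the gene alone. Among 5328 non-Hox genes whose promoter CpG (observed over expected) lay between the quartiles of the Hox promoters, 0.518 and 0.691, a peak was found in both libraries at 96.8% and in a single library at 1.24%, with medians of 4.88 and 4.58.

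**Figure D1:**
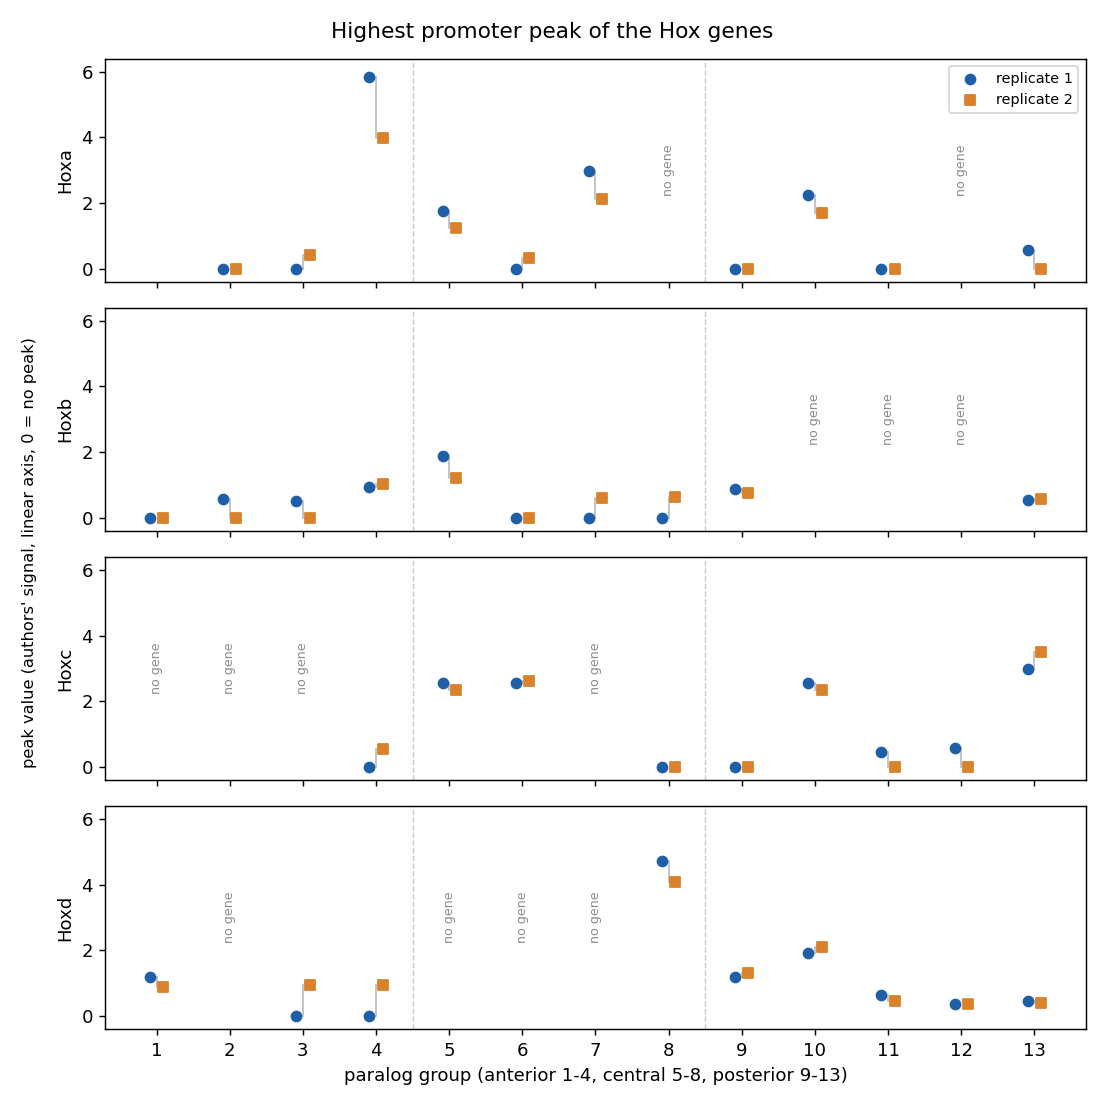
Highest promoter peak value (authors' signal, linear axis, 0 where no peak was listed) of each Hox gene reported here by paralog group, 1 panel per cluster, with circles for replicate 1 and squares for replicate 2. Hoxa4 (5.82 and 3.97) and Hoxd8 (4.72 and 4.07) stand highest, groups 5 and 10 lie above 1 in both libraries in every cluster that has them, and groups 2 and 3 have no gene with a peak in both. The Hoxc5 value is that of the peak in front of Hoxc10.

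Among the 12 anterior genes, both libraries showed a peak at 4, 1 library alone at 6 and neither at 2. Hoxa4 had the highest promoter value of all 39 genes, 5.82 in replicate 1 and 3.97 in replicate 2 (4.89 ± 1.31, SD, n = 2), from 1 peak just upstream of its start. Hoxb4 had 0.952 and 1.03, centred 379 and 374 bp downstream of its start. Hoxd1, at the anterior end of its cluster, had 1.20 and 0.880. No group 2 or group 3 gene was open in both libraries: Hoxa2 had no peak, Hoxb2 had 0.570 and Hoxb3 0.505 in replicate 1 alone, and Hoxa3 had 0.430 and Hoxd3 0.936 in replicate 2 alone. The Hoxa3 peak lies at the start of a long transcript, between Hoxa6 and Hoxa7, and is also the highest peak of Gm28308. The Hoxd3 peak is also the highest peak of Hoxd4, whose annotated start lies 2 bp away, so the pair counts 1 site. It lies at the first of 6 annotated starts of Hoxd3 and of 3 of Hoxd4. Hoxc4, the only anterior gene of its cluster, had 0.551 in replicate 2 alone, and Hoxb1 had no peak.

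Central genes had the highest median values, 1.75 and 1.22, with 6 of 11 open in both libraries and all 6 above 1. This counts Hoxc5 by a peak in front of Hoxc10, described below. Counted by its weaker peak, Hoxc5 would be below 1 and both medians would be lower. The central median of replicate 2 would then be below the anterior median of 0.715. Hoxd8, the sole central Hoxd gene, had 4.72 and 4.07 (4.39 ± 0.45, SD, n = 2). Hoxa7 had 2.99 and 2.12 across its start, and Hoxc6 2.54 and 2.63 from a peak centred 1104 and 1094 bp downstream of its start, at the edge of the window. The 3 members of group 5 were all open. Hoxb5 had 1.89 and 1.22, and Hoxa5 1.75 and 1.23. Hoxc5 had 2.57 and 2.34, but from a peak in front of Hoxc10: a long annotated Hoxc5 transcript starts 832 bp downstream of that peak, 46.4 kb before the last annotated start, so the value is not that of the usual Hoxc5 start. At its other starts Hoxc5 had a weaker peak of 0.677 and 0.706, which is also the peak of the microRNA gene Mir615. In a single library, replicate 2, peaks were listed at Hoxa6 (0.336), Hoxb7 (0.608) and Hoxb8 (0.638). Hoxb6 and Hoxc8 had none.

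Of the 16 posterior genes 10 were open in both libraries, mostly at low values. This was the highest share of the 3 classes, but with the shorter list it was 6 of 16 against 6 of 11 central genes, with peaks at or above the median 7 of 16 against 6 of 11, and with windows of 2500 bp 10 of 16 against 8 of 11. Hoxc13, a regulator of hair and nail keratins, had 2.97 and 3.51, with a peak 232 and 242 bp upstream of its start. The 3 members of group 10, needed in lumbar vertebrae and in the reproductive tract, were all open: Hoxc10 had 2.57 and 2.34, Hoxa10 2.24 and 1.70 from a peak inside the gene, and Hoxd10 1.94 and 2.10. All 5 posterior Hoxd genes were open. Beside Hoxd10, Hoxd9 had 1.19 and 1.31, and the 3 genes nearest the end of the cluster were low: Hoxd11 had 0.651 and 0.461, Hoxd12 0.371 and 0.359 and Hoxd13 0.452 and 0.396. The Hoxd12 and Hoxd13 values rest on different peaks in the libraries, and the ranges of Hoxd11 and Hoxd13 nearly touch. Hoxb9 had 0.866 and 0.766, again from different peaks, and Hoxb13 0.548 and 0.559. In the Hoxa cluster only Hoxa10 of 4 posterior genes was open in both. Hoxa13 had 0.570 in replicate 1 alone, as had Hoxc11 (0.452) and Hoxc12 (0.575), and Hoxa9, Hoxa11 and Hoxc9 had no peak.

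By cluster, 5 of 11 Hoxa, 4 of 10 Hoxb, 4 of 9 Hoxc and 7 of 9 Hoxd genes were open in both libraries, and only in Hoxd had every gene a peak in at least 1. In Hoxc the open genes Hoxc6, Hoxc10 and Hoxc13 stood at 2.34 or more in both libraries, Hoxc5 had the Hoxc10 peak, and the other 5 genes were at 0.575 or less. In Hoxb, Hoxb5 was the only gene above 1 in both.

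Peaks were dense in the clusters taken whole, though not at every gene. No peak lay nearest to a start of Hoxa11 or Hoxb1 in either library. The 4 regions held 127 peaks in replicate 1 and 147 in replicate 2, or 9.83 and 11.4 per 100 kb (10.6 ± 1.1, SD, n = 2), against 3.71 and 4.31 over the genome. Between the first and last gene there were 81 and 88 peaks, 16.5 and 17.9 per 100 kb, 4.44 and 4.16 times the genome's density. Hoxd was densest in the mean, with 16.5 and 22.7 per 100 kb, followed by Hoxb with 18.4 and 17.2, Hoxa with 14.2 and 20.9 and Hoxc with 15.6 and 12.1. Hoxc lay below Hoxb and Hoxd in both libraries, and the other ranges overlapped. The chromosomes that hold the clusters had 3.61 and 4.06 on chromosome 6, 5.78 and 6.70 on chromosome 11, 4.02 and 4.62 on chromosome 15, and 4.18 and 4.84 on chromosome 2. In the clusters footprints were 4.20 and 4.38 times and bases listed at a raised cut rate, in the FDR (false discovery rate) track, 2.99 and 3.64 times as dense as over the genome.

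**Figure D2:**
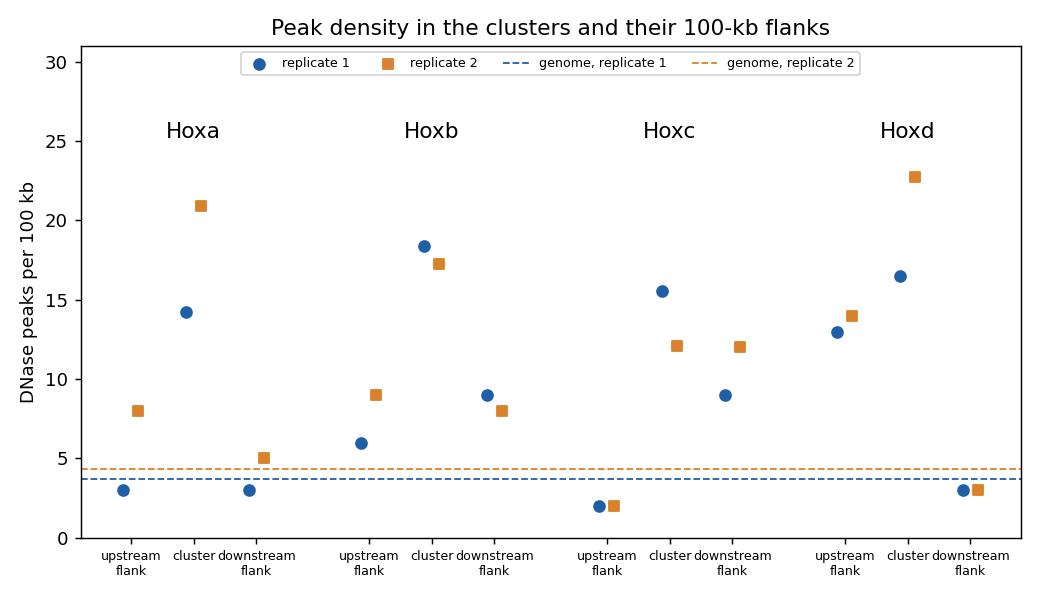
DNase peaks per 100 kb in each cluster and in the 100 kb before its posterior and after its anterior end, with circles for replicate 1, squares for replicate 2 and dashed lines for the genome. Each cluster lies above the genome lines in both libraries, while the flanks range from 2 on the posterior side of Hoxc to 13 and 14 on the posterior side of Hoxd.

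The flanks differed by cluster and side. On the posterior side of Hoxd, which holds the even-skipped gene Evx2 and Lnpk, there were 13 and 14 peaks, against 3 in each library on its anterior side. Hoxc was the reverse, with 2 in each library on the posterior side and 9 and 12 on the anterior side, none of them at the promoter of another protein-coding gene. Hoxa had 3 and 8 posterior and 3 and 5 anterior, near the genome's level in replicate 1. Hoxb had 6 and 9 posterior and 9 and 8 anterior. The highest peak of any region was not at a Hox gene: the promoter of Lnpk, an endoplasmic reticulum protein, 89.3 kb from Hoxd13 (chr2:74578861-74579100), had 8.74 and 7.32. Mtx2, a mitochondrial import protein on the other side of Hoxd, had 3.63 and 3.11, and a peak in the body of Evx2, 12.7 kb upstream of Hoxd13, 3.23 and 2.57.

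**Figure D3:**
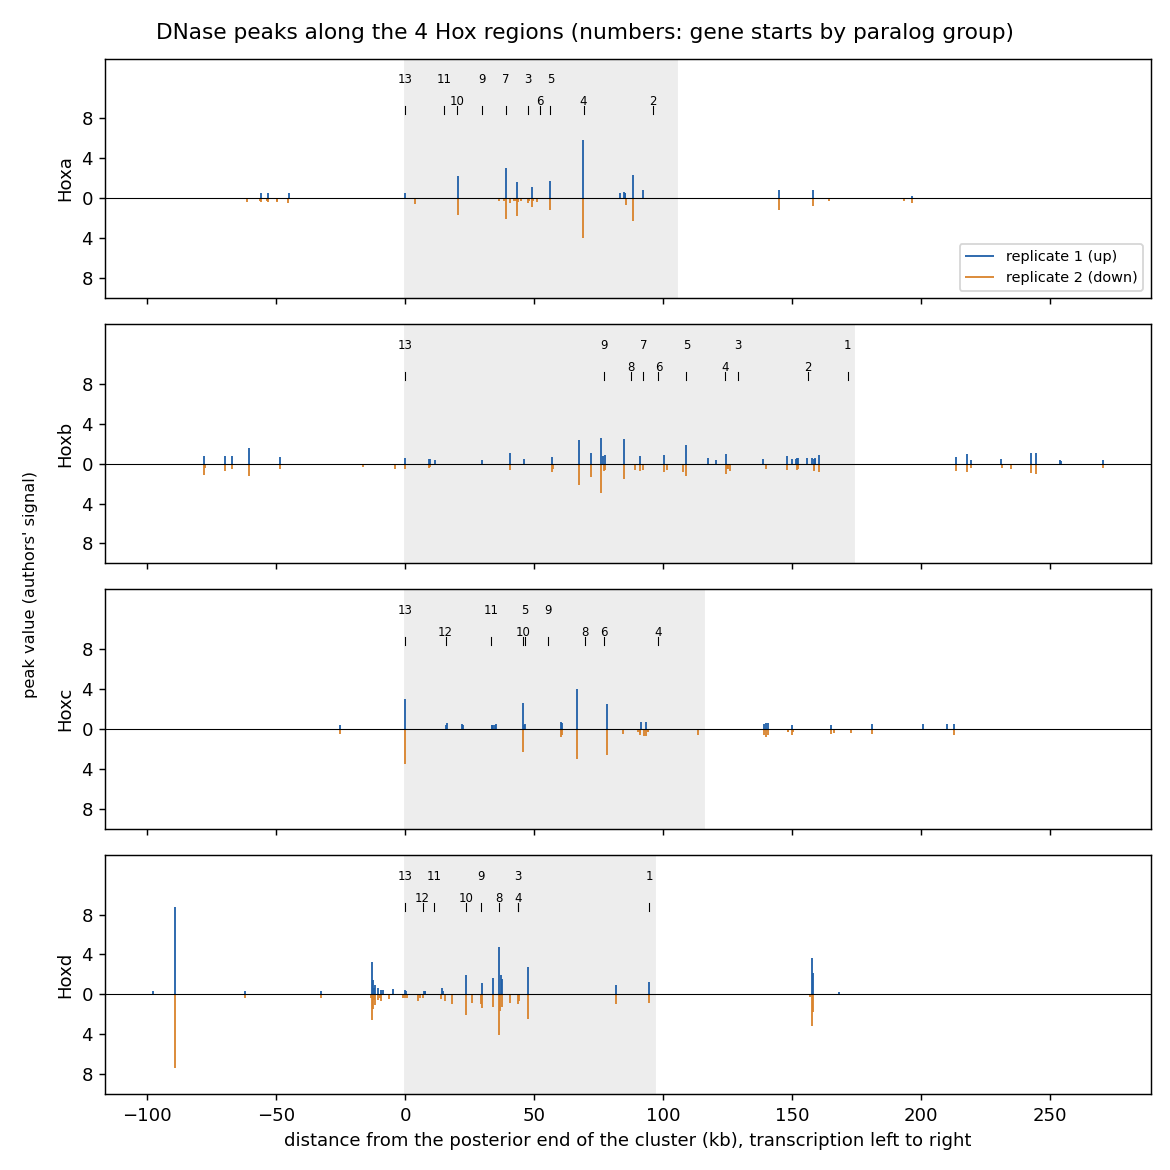
Peaks of the 4 Hox regions, without those of a promoter not reported here, as vertical lines whose length is the peak value (authors' signal), replicate 1 upward and replicate 2 downward, against the distance in kb from the posterior end of the cluster (shaded), with numbers at the 5′ end of each Hox gene reported here. Hoxc5, Hoxa3 and Hoxd4 stand out of order because long transcripts start far upstream. The tallest lines in the clusters are at Hoxa4 and Hoxd8, and those of Hoxb lie upstream of Hoxb8 and Hoxb9.

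Some of the strongest sites lay away from Hox promoters, and 3 of those below lie in promoter windows of the noncoding genes Gm53, Gm15050 and Hoxd3os1. The highest peak of the Hoxc region in replicate 1 was that between Hoxc9 and Hoxc8 printed above, 2996 bp upstream of Hoxc8, with 4.03 and 2.98, although neither neighbour had a promoter peak. In replicate 2 the Hoxc13 promoter (3.51) was higher. In Hoxb the 3 highest shared peaks were all between protein-coding genes and above every Hoxb promoter in both libraries: 1336 bp upstream of Hoxb9 (2.56 and 2.96), 9736 bp upstream of Hoxb9 inside the long noncoding gene Gm53 (2.36 and 2.11) and 2924 bp upstream of Hoxb8 (2.47 and 1.50). In Hoxd the peak with the CTCF run in the shared intron of Hoxd3 and Hoxd4 had 2.77 and 2.46, while their common start had none in replicate 1. In Hoxa an exonic peak of Hoxa3, 7900 bp upstream of Hoxa2 and at the start of the noncoding gene Gm15050, had 2.34 and 2.30. Of the 127 and 147 peaks, 39 and 44 lay in Hox promoter windows, 10 and 13 in other Hox exons, 12 and 16 in Hox introns and 47 and 55 between protein-coding genes, some of them in noncoding genes. The widest peak of each region was of middling value: 472 bp in a Hoxa3 intron (0.575, replicate 1), 513 bp in Hoxb2 (0.691, replicate 2), 509 bp beyond Hoxc4 (0.581, replicate 1) and 627 bp at the Evx2 promoter (0.489, replicate 1).

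Hox peaks differed between the libraries more than other peaks. In replicate 1, 87 of 127 peaks (68.5%) overlapped a peak of replicate 2, against 82.6% over the genome, and in replicate 2, 88 of 147 (59.9%) overlapped one of replicate 1, against 71.4%. Peaks of 1 library were weaker, with medians of 0.457 and 0.396 against 0.812 and 0.789 for shared ones. Hox peaks were otherwise not weak: 35 (27.6%) and 34 (23.1%) had a value above 1, against 26.2% and 22.8%, and 111 (87.4%) and 138 (93.9%) held a footprint, against 82.3% and 87.2%. At shared peaks the median log2 ratio of replicate 2 to replicate 1 was −0.07 (n = 87), against 0.02 over the genome, and −0.25 in Hoxa, −0.05 in Hoxb, 0.07 in Hoxc and −0.19 in Hoxd.

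The difference had a position in the clusters. Each base under the FDR track, from 1000 bp before to 1000 bp after the cluster, was given to the nearest Hox start. All annotated starts were used. Bases near the long Hoxc5 transcript's start, next to Hoxc10, thus counted as central. Those near the long Hoxa3 transcript's start, between Hoxa6 and Hoxa7, counted as anterior. Central genes had 4229 bp in replicate 1 and 9059 bp in replicate 2, a ratio of 2.14, against 1.17 for anterior genes, 1.06 for posterior genes and 1.13 over the genome. The central ratio was 3.74 in Hoxa, 2.12 in Hoxb and 2.22 in Hoxc, and 1.10 at Hoxd8. Without Hoxa7 it was 1.74. Hoxc5 had 406 and 1326 bp and Hoxa3 1004 and 1401 bp, and their parts near the long transcripts' starts were not separated. In Hoxd the order was the other way, with 1.79 for anterior and 1.79 for posterior genes, so the central excess lay in Hoxa, Hoxb and Hoxc. Of the central peaks, 1 of 16 in replicate 1 had no overlap in replicate 2, whereas 17 of 32 in replicate 2 had none in replicate 1. Such peaks were 12 of 28 and 11 of 27 among anterior and 19 of 35 and 11 of 27 among posterior ones. Over the genome 82.6% and 71.4% of peaks had an overlap. The central class thus stood apart mainly by its few such peaks in replicate 1. The 15 shared central peaks were not higher in replicate 2, with a median log2 ratio of −0.26 and 4 of 15 higher. Marker promoters differed between the libraries as well, with medians of 7.86 and 7.52 for germ cells, 2.54 and 3.23 for Sertoli cells, 1.54 and 1.41 for myoid cells and 0.554 and 0.579 for Leydig cells, and their part in this was not tested.

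**Figure D4:**
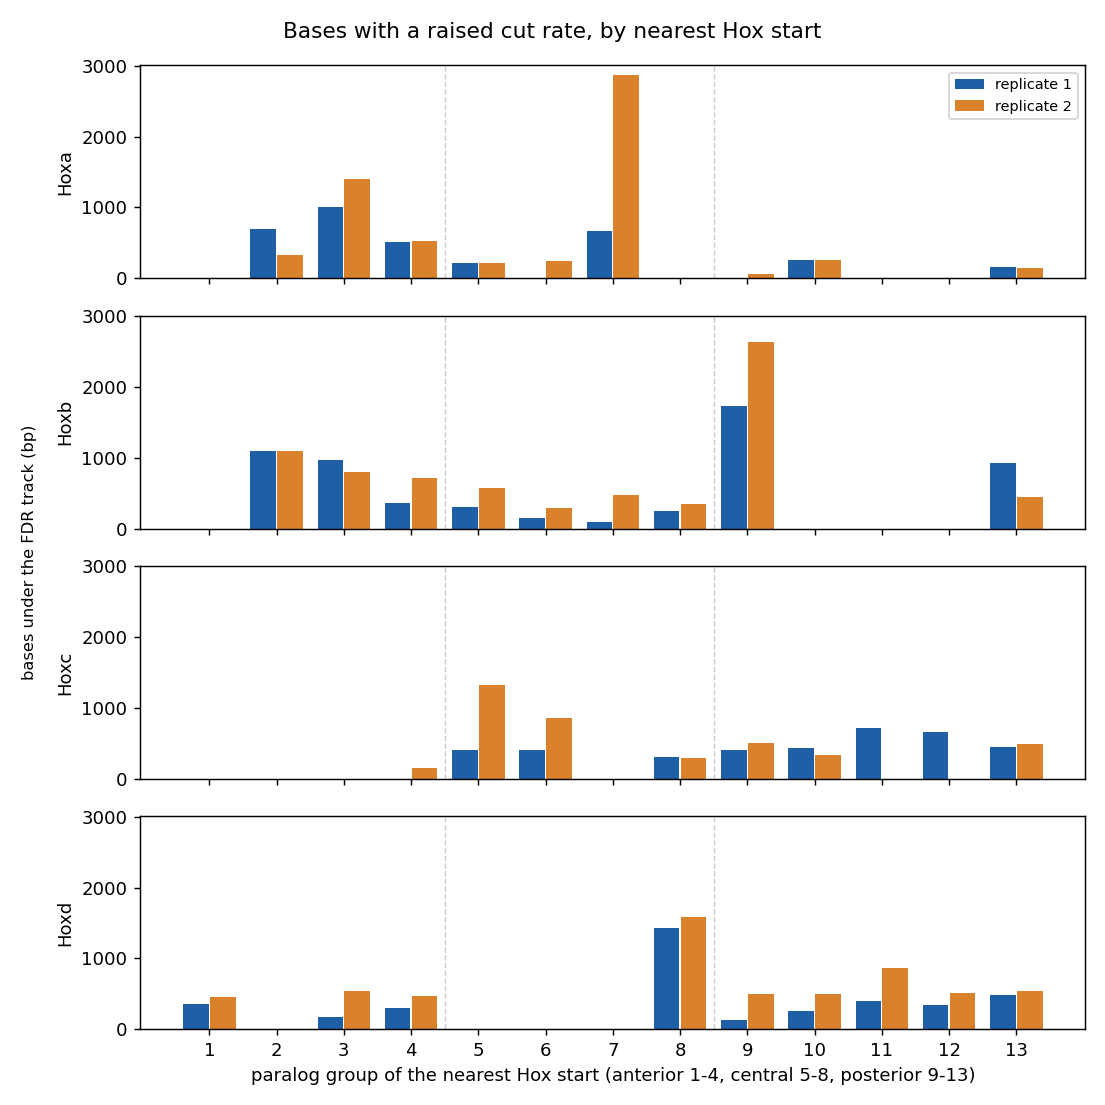
Bases under the FDR track (bp) given to the nearest Hox start, by paralog group and cluster, with blue bars for replicate 1 and orange bars for replicate 2; groups without a gene in a cluster, and a gene not reported here, have no bar. Hoxa7 has 673 and 2862 bp, and Hoxc11 and Hoxc12 have bars in replicate 1 alone.

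At Hoxa7 the promoter windows held 2 peaks and 673 bp of the track in replicate 1, and 7 peaks and 2743 bp in replicate 2, although its highest peak was lower in replicate 2. The windows of Hoxa6 and Hoxa7 together had 2 peaks against 8, and the 6 peaks without a counterpart had values of 0.445 or less. The lowest FDR in the Hoxa7 windows was 3.2e-13 and 1.4e-56. In the posterior Hoxc genes the libraries differed the other way, with 14 peaks and 2674 bp in replicate 1 against 4 peaks and 1343 bp in replicate 2. Hoxc11 and Hoxc12 had 716 and 658 bp and 5 and 4 peaks in replicate 1, and 0 bp and no peak in replicate 2. Without this pair the posterior ratio was 1.30. All 3 posterior genes open in 1 library (Hoxa13, Hoxc11, Hoxc12) were open in replicate 1, and all 3 such central genes (Hoxa6, Hoxb7, Hoxb8) in replicate 2.

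Hox peaks were also under-represented in the shorter of the deposited peak lists, whose peaks reach an FDR below 0.001. That list held 57 of 127 (44.9%) and 78 of 147 (53.1%) Hox-region peaks, against 60.6% and 58.6% over the genome. The gap remained at like values. Among peaks between the median and the upper quartile of value, 21 of 39 and 33 of 56 Hox-region peaks met the shorter list, 53.8% and 58.9%, against 83.8% and 80.6%. Inside the clusters the shares were 30.8% (8 of 26) and 42.1% (16 of 38). Above the upper quartile 31 of 34 and 35 of 38 met it, against 99.7% and 99.6%, and below the median 5 of 54 and 10 of 53, against 29.5% and 26.7%. With the shorter list, 15 Hox genes were open in both libraries (38.5%), against 63.4% of all genes, and open posterior genes fell in number from 10 to 6.

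Letters of known binding sites were searched on both strands of the peaks, at any overlap with one another. The CTCF letters given above were in 7 (5.51%) and 6 (4.08%) Hox-region peaks, against 10.4% and 8.21% of all peaks. With the A of CCA left free, a search added after the data were examined, there were 14 (11.0%) and 15 (10.2%), against 16.8% and 14.0%. PBX-HOX letters (TGATTNAT) were in 3 and 2 peaks, against 1.16% and 1.25%, and the homeodomain core TAATTA in 3 and 4, against 1.72% and 1.71%. A paired retinoic acid receptor site (GNTCA, any 6 bases, GNTCA), of the kind through which retinoic acid acts on anterior Hox genes, was in 2 and 1, against 0.625% and 0.645%. The first was in an intron of Hoxa3 (GTTCAAGAAGAGTTCA) in a peak listed in replicate 1, and the other 27.3 kb beyond a Hoxc4 start (GTTCACCGAGAGTTCA) in a peak of 0.651 and 0.600, outside footprints. AGATAA, the GATA letters, was in 5 and 6 peaks, against 7.10% and 7.57%, and CAAGGTCA, the letters of the gonadal receptor SF1, in 1 and 4, against 2.48% and 2.74%. Counts this small do not separate the Hox peaks from the rest, and a match is not a bound site.

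Noncoding genes of the clusters gave a mixed picture. Of 29 long noncoding genes in the regions, 16 had a promoter peak in both libraries (55.2%), against 32.6% of 9781 over the genome, and among the 18 whose windows do not meet a Hox window it was 10 (55.6%). These 10 genes are not 10 separate sites. 4930445N08Rik, Evx1os and Gm11529 had peaks in the promoter windows of Lnpk, Evx1 and Skap1, and Gm28876 and Gm10830 shared 1 peak. Halr1, on the anterior side of Hoxa, had 0.785 and 0.736 of its own, and Haglr, antisense in Hoxd, 1.20 and 0.997 from different peaks, the first that of Hoxd1. Hottip and Hotair, noncoding RNAs known for roles in Hox regulation, and Hoxa11os had no peak. Of 7 microRNA genes, 2 had a peak in both libraries, Mir196a-1 upstream of Hoxb9 (1.08 and 1.32) and Mir615 (0.677 and 0.706). The copies of the miR-196 family are shown because their products share a seed (bases 2 to 8, in capitals) while only the Hoxb copy had a peak. That peak (chr11:96266113-96266272 in replicate 1) only meets the downstream edge of the window around the annotated start, 96265164. The annotated gene is short (chr11:96265164-96265265), and where its transcript begins is not given, so the difference between copies rests on an edge. Sequences are from RefSeq (GRCm38.p6), which matched 6 of the 7.
mmu-miR-196a-5p, from Mir196a-1 (Hoxb) and Mir196a-2 (Hoxc): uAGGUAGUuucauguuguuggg
mmu-miR-196b-5p, from Mir196b (Hoxa): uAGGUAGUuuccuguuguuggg
mmu-miR-10a-5p, from Mir10a (Hoxb): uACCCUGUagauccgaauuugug
mmu-miR-10b-5p, from Mir10b (Hoxd): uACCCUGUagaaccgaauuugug

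Mir196a-2 encodes the same mature 5p strand as Mir196a-1 and had no peak, nor had Mir196b, whose product differs from it outside the seed, nor Mir10a and Mir10b.

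Genes that work with the clusters were open more widely than the clusters themselves. All 9 cofactor genes were open. Pknox1 had 14.4 and 15.7, Pbx3 13.8 and 10.9, Pbx4 3.70 and 4.42 and Pbx2 3.92 and 3.36. Meis1 had 2.22 and 3.21, Pknox2 1.71 and 1.67, Meis2 1.25 and 1.16 and Meis3 0.860 and 0.729. All 3 MEIS genes stood below Pbx2, Pbx3 and Pbx4 in both libraries. All 25 Polycomb genes were open, led by Cbx8 (16.7 and 17.6), Jarid2 (15.8 and 17.9) and Suz12 (15.7 and 14.8). Of 10 Trithorax genes 9 were open, led by Kmt2b (15.7 and 15.9), Kdm6a (11.1 and 13.4) and Wdr5 (13.6 and 10.4), and the demethylase gene Kdm6b had 0.627 in replicate 2 alone. The caudal and even-skipped genes, homeobox relatives that regulate or flank the clusters, were the exception: Evx1 had 0.479 and 0.377 and Evx2 0.489 and 0.634, Cdx4 had 0.155 in replicate 2 alone, and Cdx1 and Cdx2 had none. The background for these counts is the 68.7% of all protein-coding genes given above. Among the non-Hox genes with promoter CpG between 0.518 and 0.691 it was 96.8%. Median promoter CpG was 0.576 for the cofactors, 0.718 for the Polycomb and 0.623 for the Trithorax genes. The high shares of these lists were thus near that of CpG-rich promoters and are not particular to genes that work with Hox clusters.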

How the data were processed

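DNase-seq of 14-day testis gave 2 libraries of 1 group. Per the deposited text descriptions, the authors made 2 peak lists, footprints and an FDR track on mm10 from each library alone. For the callers no name or version is given in the sources used here. Each peak's value is a signal that the authors deposited, of unstated scale. The p-value columns deposited by the authors hold the FDR per stretch, listed only below 0.05, and a constant threshold for footprints, of which only positions were used. In hybrid mice, reads with castaneus alleles may map less well to mm10, which was not tested.

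The longer peak list was used. Overlap meant 1 bp, windows 1000 bp and flanks 100 kb, and peaks, footprints and track were set against GENCODE M21 and GRCm38.p6, the same build as mm10 (Python 3.11.15, pandas 2.3.3, numpy 2.4.6). Of duplicated symbols 1 gene was kept. Open means a promoter peak in both libraries, and no listed peak means only that none passed the authors' limit. A difference between libraries is given as their 2 values, and no p-value was computed. Interval look-up, promoter values and letter matching were tested on simulated data (500, 500 and 200 cases, all right). By rule, values were printed for the 3 highest open genes per cluster, genes open in 1 library, genes sharing their highest peak, the 3 highest shared peaks and the widest peak per region, the cofactors, and the 3 highest and the closed regulators; other Hox genes were named after their values were seen. Counts cover all genes, but the values of some genes are not reported here and are not drawn. The members and lists were chosen with earlier results of these data known. Alternatives were other windows and flanks, the gene's 5′ end, the shorter list, peaks at or above the median, stricter overlap and FDR, and leaving out each library.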

Additional observations from a re-analysis of the deposited data

How the results depend on the processing

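No paired analysis was possible because there is 1 group and the results come from no test. Of the planned values 101 moved by less than the spread between libraries or, for counts, by less than 1.5 times, and 48 moved more; the cause was not tested beyond what each setting removes. Open anterior genes rose from 4 to 7 with windows of 2500 bp, and to between 6 and 8 with 1 library left out. With the shorter list 6 posterior and 0 caudal and even-skipped genes were open, and 0 of the latter with peaks at or above the median. For Hoxa, Hoxb, Hoxc and Hoxd, peaks per 100 kb (means) became 17.6, 17.8, 13.8 and 19.6 with no flank, 4.42, 6.28, 3.64 and 6.91 with the shorter list, and 4.91, 8.69, 4.43 and 7.41 at or above the median; with 50-kb flanks Hoxb, Hoxc and Hoxd came to 13.1, 11.4 and 14.7. Footprints per 100 kb became 60.3, 49.2, 31.5 and 56.3 with no flank, and 29.0 for Hoxc with 50 kb. Track bases per 100 kb became 4977, 3708, 2949 and 4871 with no flank, 2647 for Hoxc with 50 kb, and 1087, 1158, 796 and 2079 at an FDR below 0.001. The shared share of Hox peaks became 71.7% with the shorter list, 76.7% at or above the median and 52.8% with a stricter overlap of each peak. No genome share is given at these settings, so whether the gap remained cannot be read from them. The CTCF share was 8.09% in the shorter list, 1.43% in extended footprints and 10.6% with 1 letter fewer, chosen after the data were examined. Genome shares in replicates 1 and 2 were 12.4% and 9.24%, 3.04% and 2.21%, and 16.8% and 14.0%. The Hox share was thus lower at each setting. In extended footprints and in the shorter list, shares were 0.153% and 0% for PBX-HOX, 0.263% and 2.11% for TAATTA, 0% and 0% for the retinoic acid site, and 0.416% and 6.60% for GATA letters, and SF1 came to 0% in extended footprints. In the same order, genome shares of the shorter list in replicates 1 and 2 were 0.968% and 1.04%, 1.39% and 1.39%, 0.551% and 0.582%, and 6.13% and 7.12%. Those of extended footprints were 0.0535% and 0.0566%, 0.120% and 0.127%, 0.0215% and 0.0275%, 0.461% and 0.511%, and for SF1 0.287% and 0.422%. With a minimum of 20 bp, also chosen later, 23 shared footprint runs lay in the regions instead of 13. Depth in reads is unknown, so how far it limits weak peaks could not be measured.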
